A study of Homo sapiens with 4 samples.

Results

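The vault RNA genes VTRNA1-1, VTRNA1-2, VTRNA1-3 and VTRNA2-1 and the Y RNA genes RNY1, RNY3, RNY4 and RNY5 were examined for binding regions of the Argonaute proteins AGO1 and AGO2 in HEK293, a human embryonic kidney cell line. The genes were chosen by name, and their regions were those of the deposited list that overlapped the gene's interval on the genome build hg19 on the same strand, by at least 1 nt. By this rule 6 of the 211947 regions in the list belonged to the 8 genes. The data came from PAR-CLIP, in which cells take up a photoreactive uridine, ultraviolet light fixes proteins to the RNA they touch, and the RNA recovered with the protein is sequenced. Per the labels, 3 libraries were made from cells stably expressing a His/FLAG/HA-tagged protein, precipitated through FLAG and titled AGO1, with 4-thiouridine at 200 µM. The fourth was titled AGO2 and came from HEK293 cells precipitated with the antibody 11A9 against AGO2, with 4-thiouridine at 100 µM. Both kinds of cells had 4-thiouridine for 16 h and light at 365 nm. For AGO2 the labels name no tag, whereas the series text speaks of tagged lines for both proteins, so whether the AGO2 cells carried a tag is not settled here.

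The list pools libraries and gives each region a single score, a whole number with a ceiling of 1000 whose meaning the sources used here do not state. The values below therefore have no replicates and no error, AGO1 cannot be told apart from AGO2, and read depth is unknown. No order of scores below could be set against a spread between libraries. Sums and ratios of scores below are of the deposited numbers, whose scale is unknown. The list has no expression values, so neither the amount of each RNA in the cells nor the identity of the cell line was tested.

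Vault RNAs and Y RNAs are short noncoding RNAs made by RNA polymerase III. Vault RNAs are minor parts of the vault, a large cytoplasmic particle built mostly of the major vault protein, and fragments cut from VTRNA1-1 have been described in complexes with Argonaute. Y RNAs fold back so that their ends pair in a stem, which carries the binding site of the protein Ro60, while the La protein binds the 3′ end. Fragments from both ends of Y RNAs are common in small RNA libraries. Argonaute proteins are best known for carrying microRNAs, which guide them to messenger RNAs.

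The first 50 bases of VTRNA1-1 are shown because they are the start of a gene that a region of very high score covered in full, and because they hold an internal promoter element of this gene class. They are RefSeq sequence of the build GRCh38.p14, chr5:140711276-140711325, plus strand, listed there as the start of the long noncoding RNA LOC105378198, which begins at the same base and contains VTRNA1-1, VTRNA1-2 and VTRNA1-3. Capitals mark a match to the A box consensus, one of the recognition elements inside such genes, at bases 10 to 20.
VTRNA1-1, first 50 bases: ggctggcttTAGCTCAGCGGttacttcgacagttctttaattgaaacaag
The match was the only one on either strand of these 50 bases. Across 35116 RefSeq start sites, 5.30% of the 50-base windows after the start held a match on either strand and 3.14% on the forward strand. Of the 50 bases, 16 were T, the DNA letter for the uridine that 4-thiouridine can replace in RNA.

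Of the 4 vault RNA genes, 3 carried some of the highest scores of the whole list, and the fourth carried no region. A single region lay on each of VTRNA1-1, VTRNA1-2 and VTRNA1-3, with scores of 660, 1000 and 925. A score of at least 100 was thus reached by all 3 vault regions and by 1 of the 3 Y RNA regions, 4 of 6 in all, against 0.264% of all regions in the list. The median score over the list was 3. Together the 6 regions were 0.00283% of the list by number and held 0.247% of its summed score. The vault regions summed to 2585 and the Y RNA regions to 279, so the vault sum was 9.27 times as high. If the ceiling cuts off higher values, which the sources used here do not state, that ratio is a lower bound as regards VTRNA1-2. The share of 0.247% has no such direction, as other regions of the list are at the ceiling too. Among these 6 regions, the lowest vault score was 3.57 times the highest Y RNA score. This does not separate the families, because VTRNA2-1 and RNY1 had no same-strand region and so no score to compare. The Y RNA sum leaves out the opposite-strand regions at RNY1, scored 27 and 5. If they belong to RNY1, the Y RNA sum would be higher and the ratio of 9.27 lower.

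**Figure D1:**
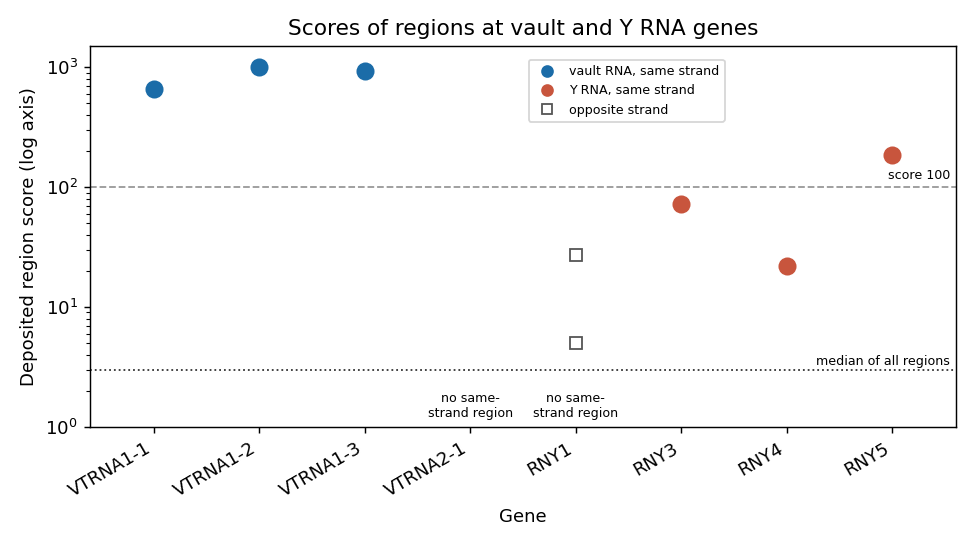
Deposited score of each region at the 8 genes, on a log axis; filled circles are regions on the strand of the gene (blue, vault RNA; red, Y RNA), open squares are regions on the opposite strand, the dashed line is a score of 100 and the dotted line the median of all regions, 3. The 3 VTRNA1 genes stand between 660 and 1000, RNY5 is the only Y RNA above 100, and VTRNA2-1 and RNY1 have no region on the strand given.

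The genes VTRNA1-1 to VTRNA1-3 follow each other on the plus strand of chromosome 5, separated by 7550 and 7123 nt, and in RefSeq their protein-coding neighbours are ZMAT2 and PCDHA1. VTRNA1-2, at 140098509 to 140098598, held 1 of the 7 regions at the ceiling, of which 4, its own included, lay outside the mitochondrial chromosome. VTRNA1-3, at 140105722 to 140105822, had the highest score below the ceiling. VTRNA1-1, at 140090860 to 140090958, had a score that 16 regions, its own included, reached or passed. The scores of VTRNA1-2 and VTRNA1-3 were 1.52 and 1.40 times that of VTRNA1-1, the first again a lower bound if the ceiling cuts off higher values.

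The vault regions were wide, at 119, 162 and 152 nt in the order of their names, against a median of 32 nt over the list. Their scores were high among regions of like width too. With the 6 regions at these genes left out of the comparison, 1457 regions outside the mitochondrial chromosome were within 10% of the width of the VTRNA1-1 region. The median of these was 21, and a score of 660 was reached by 1. For VTRNA1-2, 1 of 514 regions of like width reached its score, and their median was 35. For VTRNA1-3 it was 1 of 646, with a median of 33. The region closest in score to VTRNA1-2, and among equals closest in width, was found on chromosome 6, plus strand, at 27599184 to 27599336. It was 153 nt wide and scored 1000. It is the 1 region counted for VTRNA1-2 and also the 1 counted for VTRNA1-3, so these comparisons are not separate.

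**Figure D2:**
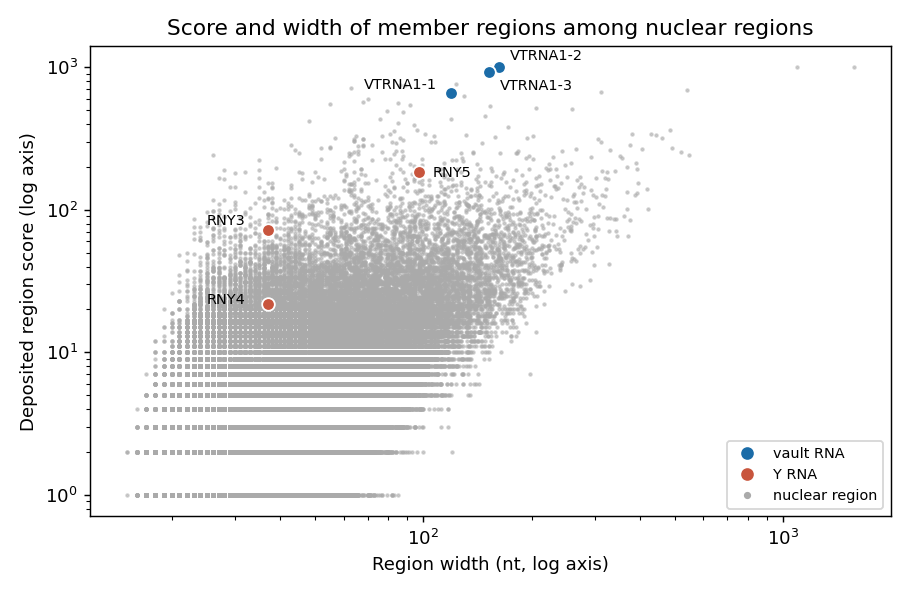
Score against width, both on log axes, for all regions outside the mitochondrial chromosome (grey) and the 6 regions at vault (blue) and Y RNA (red) genes. The vault regions, 119 to 162 nt wide, lie at the upper edge of the cloud, above the median score of regions as wide; RNY3 and RNY4 share a width of 37 nt.

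The vault regions took in whole genes rather than short stretches. Those of VTRNA1-1 and VTRNA1-2 covered 100.0% of the gene interval, and that of VTRNA1-3 covered 99.0%, all but the first base. They differed in how far they ran past the gene. At VTRNA1-1 the region began 18 nt before the gene and ended 2 nt after it. At VTRNA1-2 it began 17 nt before and ended 55 nt after. At VTRNA1-3 it ended 52 nt after the gene. The interval used for VTRNA1-3 is 101 nt, whereas RefSeq gives this RNA a length of 88 nt, so its distances from the ends carry that uncertainty. For VTRNA1-1 and VTRNA1-2 the lengths were 99 against 98 nt and 90 against 88 nt.

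Each region of the list also marks a single inner position, whose meaning is not stated. Counted from 1 at the first base of the interval, it lay at base 86 of VTRNA1-1, toward the 3′ end, at base 40 of VTRNA1-2 and at base 58 of VTRNA1-3. Counted from the start of the region instead, it was base 57 at both VTRNA1-2 and VTRNA1-3, and base 104 at VTRNA1-1.

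VTRNA2-1, also known as nc886 and once annotated as the microRNA precursor miR-886, was without any region. Its interval on the minus strand of chromosome 5, 135416187 to 135416286, is 100 nt long, and RefSeq gives 108 nt and the coding neighbours TGFBI and SMAD5. The nearest region on its strand was 118158 nt away, with a score of 2. The nearest on the other strand was 48121 nt away, also with a score of 2. VTRNA2-1 is therefore not in the list at all, whereas the other vault RNA genes are near its top. It is grouped with them by its name and RefSeq class, and whether its RNA is part of the vault particle was not tested. A region missing from a filtered list gives no upper limit on the reads there, and whether these cells make the RNA was not tested.

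The Y RNA genes lie within 45761 nt on chromosome 7, between the coding genes EZH2 and PDIA4 in RefSeq. RNY5 had a score of 185, RNY3 of 72 and RNY4 of 22, and RNY1 had no region on the plus strand. RNY5 was thus 2.57 times RNY3, and RNY3 was 3.27 times RNY4. All 3 stood above the median of the list. A score at least as high was held by 0.0845% of all regions for RNY5, by 0.491% for RNY3 and by 3.52% for RNY4. Among regions outside the mitochondrial chromosome with a width within 10%, again without the 6, 0.444% reached the score of RNY5, 0.119% that of RNY3 and 1.86% that of RNY4. By this second measure RNY3 stood higher than RNY5.

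The Y RNA regions covered different parts of their genes. RNY5, at 148638580 to 148638663, was covered in full by a region of 97 nt that began 1 nt before the gene and ended 12 nt after it. RNY3, at 148680847 to 148680948, was covered by 37 nt at its 5′ end, from 2 nt before the gene to its base 35, or 34.3% of its length. RNY4, at 148660407 to 148660502, was covered at its 3′ end, by a region also 37 nt wide that ran from base 61 to 1 nt past the end, or 37.5% of its length. So RNY3 has a region on its 5′ end and none on its 3′ end, and RNY4 the reverse. The inner position lay at base 13 in both RNY3 and RNY5, and at base 92 of the 96 of RNY4. In the folded Y RNA these ends pair with each other. Over all 8 genes, 56.6% of the 785 nt were covered, with 74.1% in the vault genes and 39.2% in the Y RNA genes. These shares count RNY1 as bare on the plus strand, and its strand could not be checked. An opposite-strand region took in 35 nt of its interval, which would raise the Y RNA share if it belongs to RNY1.

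**Figure D3:**
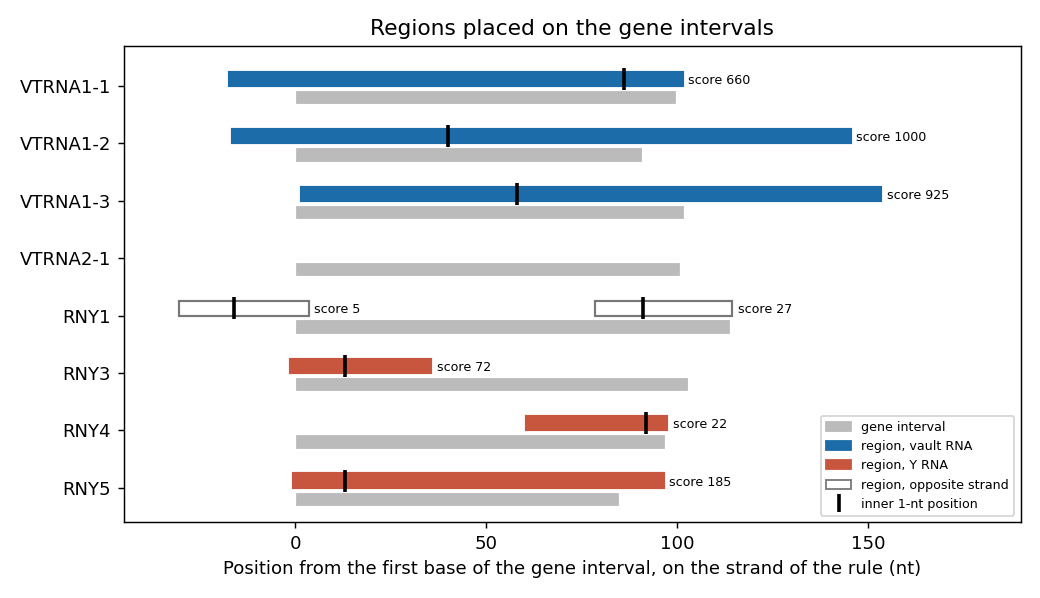
Regions drawn on each gene interval (grey), with position in nt from the interval's first base on the strand used; blue and red bars are same-strand regions, open bars are regions on the opposite strand and black ticks the inner position. The vault regions and RNY5 run past their genes, RNY3 is covered from 2 nt before the gene to base 35 and RNY4 from base 61 to 1 nt past its end.

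At RNY1, 148684228 to 148684340, the list held regions only on the minus strand, opposite to the strand used here for the gene. One, from 148684306 to 148684341, was 36 nt wide with a score of 27. The other, from 148684197 to 148684230, was 34 nt wide with a score of 5, and 3 nt of it lay inside the interval. Neither is counted among the 6 regions. The RefSeq table used here gives no strand, so the strand of RNY1 could not be checked, and which RNA these regions belong to was not tested. Read along the minus strand, the first of them would run from 1 nt before the interval to its base 35, with its inner position at base 23. On RNY3 the region ran from 2 nt before the gene to base 35, so the placements differ by 1 nt at one end and are equal at the other. Read in that direction the second region would run from base 111 of the interval's 113 to 31 nt past its end. With a score of 27, RNY1 would stand between RNY3 and RNY4. If the strand used is right, it has no region of its own.

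Most regions at these genes stood alone on their strand. No other region on the same strand lay within 1000 nt for 5 of the 6, against 22.8% of all regions in the list. For the 560 regions scoring 100 or more, the share was 9.11%. The genes here are only 84 to 113 nt long, so the 1000 nt around each lie outside the gene. The regions compared are not limited to such short genes. The exception was VTRNA1-3, with a region of 44 nt and a score of 9 that began 133 nt after the gene interval (140105956 to 140105999). Within 10000 nt of VTRNA1-1, 14 other plus-strand regions were found, between 4616 and 9199 nt away and with scores from 1 to 15. RNY4 had a single one, 1032 nt away and with a score of 2. None of the 6 regions overlapped a region of the opposite strand. Such overlaps were rare in the whole list, at 0.379%, so their absence does not set these regions apart. The nearest opposite-strand region outside a gene lay 137 nt from VTRNA1-2, with a score of 4.

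The sources used here do not state how reads matching several places were handled. RefSeq lists 75 pseudogenes named after Y RNAs and 2 named after vault RNAs, and their part in these scores was not tested.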

How the data were processed

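The members and measures were chosen with earlier results of these data known. The deposited file is a list of regions on hg19. Per the submitters' processing notes, BWA 0.5.8c was used. Per the file headers, the list carries the set name AGO_good and passed a filter named with the value 0.05. The sources used here do not name the region caller, explain that filter or say which libraries were pooled. The score, as deposited by the authors, is a whole number up to 1000 with no stated unit. Other deposited columns are genomic positions and are printed counting from 1.

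Gene intervals came from the rule that defines the genes. Overlaps, distances and ranks were computed with Python 3.11.15, numpy 2.4.6 and pandas 2.3.3, and plotted with matplotlib 3.10.9. No test was run, since 1 pooled list has no replicates. The placement functions were tested on simulated data, where all 6 measures came back for 500 genes. All 8 symbols matched the RefSeq table of GRCh38.p14, which was used for names, lengths, neighbours and the 1 sequence. All 8 genes were named whatever their values. For each region the region closest in score was found, with ties settled by width, and only that of VTRNA1-2 is printed. Genes of partner proteins were not analysed here, for want of an hg19 annotation.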

Additional observations from a re-analysis of the deposited data

How the results depend on the processing

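Of 32 alternatives, 2 were chosen after the data were seen, both of which count regions of either strand. They gave 7 genes with a region in place of 6, because of RNY1, and left 4 genes at a score of at least 100. Neither count changed under the other settings that apply to it: a region with at least 0.5 of its length inside the gene, the inner position inside the gene, genes widened by 50 nt, score minimums of 2 or 3, summed scores and weighted scores. Of the 32 alternatives, 12 were labelled the same and 20 moved. The moved ones include each region's weighted score and its share of regions scoring at least as high, where any change counted. Among regions of like width, these shares rose for the vault genes and RNY5 and fell for RNY3 and RNY4. The share of the genes' length that was covered, 56.6%, was 37.7% with genes widened by 50 nt, which adds flanks that are mostly bare. Other same-strand regions near the genes rose from 1 within 1000 nt to 16 within 10000 nt, 14 of them near VTRNA1-1. Weighting a score by the part of the region inside the gene gave 609 for VTRNA1-3, 556 for VTRNA1-2 and 549 for VTRNA1-1. The value of VTRNA1-2 may be a lower bound, as its score is at the ceiling. That of VTRNA1-3 rests on an interval longer than its RefSeq length. These values therefore give no order. The comparison of AGO1 with AGO2, with each AGO1 library left out in turn, was not run, because the list has no value per library. No paired analysis was possible because libraries are not separated in the list.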
